A study of Mus musculus with 4 samples.

Results

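Umod and Egf, a pair of secreted-protein genes of the distal nephron, were followed in spatial transcriptomics (ST) data of normal and ischemic mouse kidney. Both were chosen by name and make up 2 of the 32285 genes counted. The data came from 4 sections on the 10X Genomics Visium platform, in which RNA of a tissue section is captured on an array of barcoded spots and counted as unique molecular identifiers (UMIs). A spot is a small region that holds several cells, so its counts are an average over mixed tissue. In total 10312 spots lay under tissue, of which normal section 1 had 2616, normal section 2 had 2682, ischemic section 1 had 2401 and ischemic section 2 had 2613. All sections were 10 µm cuts of left kidneys from male WT C57BL/6J mice aged 7 to 8 weeks. The ischemic kidneys had both renal pedicles clamped for 30 min and were taken 24 h later, and the normal kidneys were controls without a stated operation. All 4 sections sat on separate capture areas of a single slide. No source used here names the mouse behind a section, so p-values measure only the spread between these sections, which may be technical.

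Uromodulin, encoded by Umod, is made almost exclusively by the thick ascending limb of the loop of Henle and the first stretch of the distal convoluted tubule. It is anchored to the apical membrane, cut free by the serine protease hepsin and released as the most abundant protein of normal urine, where it forms filaments. Epidermal growth factor, encoded by Egf, is made as a large membrane-bound precursor by the same tubule segments, and the kidney is a main source of the EGF found in urine. The thick limb runs through the inner stripe and outer stripe of the outer medulla and then through the medullary rays of the cortex. It reabsorbs salt through the cotransporter Slc12a1, whereas the distal convoluted tubule, which lies in the cortex, uses Slc12a3.

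In the GENCODE annotation of GRCm38 (mm10), Umod (ENSMUSG00000030963) is a protein-coding gene on the minus strand at chr7:119462711-119479282. Egf (ENSMUSG00000028017) is a protein-coding gene on the minus strand at chr3:129677565-129755316. The bases just upstream of both start sites are shown, because the members rose and fell together across spots of normal tissue and changed with ischemia by very different amounts. They were read from the RefSeq promoter table of GRCm38.p6, which holds 1 window for Umod and 2 for Egf, of which the outermost is shown. The Umod bases lie at chr7:119479283-119479512 and the Egf bases at chr3:129755323-129755572. Both are written 5′ to 3′ on the minus strand, with no capitals because none of the motifs searched was found in them.
Umod promoter: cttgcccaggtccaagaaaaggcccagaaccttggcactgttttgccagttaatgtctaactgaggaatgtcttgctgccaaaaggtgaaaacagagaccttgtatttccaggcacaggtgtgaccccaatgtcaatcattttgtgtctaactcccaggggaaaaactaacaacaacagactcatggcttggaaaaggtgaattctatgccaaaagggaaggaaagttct
Egf promoter: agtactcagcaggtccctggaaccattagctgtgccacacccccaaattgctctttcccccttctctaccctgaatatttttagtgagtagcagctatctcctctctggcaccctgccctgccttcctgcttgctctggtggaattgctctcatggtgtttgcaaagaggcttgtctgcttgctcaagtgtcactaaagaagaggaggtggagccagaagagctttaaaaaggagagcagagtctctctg

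The letters TCAAGGTCA of estrogen related receptor sites were searched on both strands, as were TGANTCA of AP-1 sites and TATAAA of the core promoter, and they were in neither stretch. Among 32851 RefSeq promoter windows they occurred in 0.387%, 6.75% and 12.4% when windows were cut to the 250 bases shown for Egf, and in 0.371%, 6.34% and 11.8% when cut to the 230 bases shown for Umod. The absence of a match says only that these letters are not in the stretch. GC content was 44.8% in the Umod stretch and 50.4% in the Egf stretch.

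Sections held 25957128 to 44528078 UMIs in total, with a median of 8656 to 16162.5 UMIs per spot, so the deepest library was normal section 1. Any pair of sections shared 1833 to 2137 spot barcodes, which on this platform are array positions and not cells. Kidney markers were present in every section, with a summed level of 638 to 3288 CPM (UMIs scaled to a total of 1000000) for 7 proximal tubule genes and of 465 to 1474 CPM for 13 thick limb genes. Havcr1 (kidney injury molecule 1), the check of the injury label, was at 0.966 and 2.13 CPM in the normal and 1408 and 1413 CPM in the ischemic sections. Proximal tubule genes were lower in the ischemic sections (7 of 7 past the test), as were 4 of 4 T cell genes, and 4 of 4 neutrophil genes were higher, where 29.7% of all genes tested were called lower and 31.0% higher in edgeR. These marker changes accompany every whole-section value below, and their part in the change of Umod and Egf was not tested.

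To ask how both genes stood in whole sections, UMIs were summed over all tissue spots. Over whole sections Egf was nearly lost after ischemia, whereas Umod kept most of its level, with larger falls within cortex, outer stripe and inner stripe given below. Egf stood at 510 and 663 CPM in normal sections 1 and 2 (22692 and 18350 UMIs) and at 8.21 and 8.44 CPM in ischemic sections 1 and 2 (255 and 219 UMIs). Both ischemic sections lay far below both normal sections, and the 2 ischemic values were almost the same. Umod stood at 3058 and 3454 CPM in the normal and at 2729 and 2802 CPM in the ischemic sections. The groups did not overlap here either, but the gap between them was smaller than the gap between the normal sections.

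After TMM normalisation, which corrects section totals for composition, Egf averaged 640 ± 35.2 CPM over normal and 7.58 ± 0.0956 CPM over ischemic sections (SD, n = 2 each). This was a fall of 84.5-fold, with a log2 fold change of -6.40 (SE 0.163) and a Benjamini-Hochberg adjusted p of 3.85e-08 in the quasi-likelihood test of edgeR. Umod averaged 3576 ± 163 CPM over normal and 2517 ± 30.3 CPM over ischemic sections (SD, n = 2 each), a fall of 1.42-fold with a log2 fold change of -0.51 (SE 0.18) and an adjusted p of 0.0365 in the same test. Both genes were thus called lower, in a comparison where 60.6% of the 15305 genes tested were called and 29.7% were called lower, and where 39.2% had both ischemic sections below both normal sections. Among all genes tested, Egf had the 33rd lowest log2 fold change and Umod the 4055th. The Umod call was lost without ischemic section 1 (adjusted p = 0.480 in edgeR) and without ischemic section 2 (adjusted p = 0.463), and its log2 fold change was -0.24 with section totals in place of TMM. That setting moved the median of all genes from 0.04 to 0.31 and the share of higher genes among the calls from 51.1% to 67.0%. In bulk sums of this kind, fewer cells of a type and less RNA per cell cannot be told apart.

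Other genes of the thick limb were set beside them, from a list of 13 that holds neither gene. They fell as a group, less than Egf and mostly more than Umod. Of the 13, 12 were lower, where 29.7% of all genes were, and the transcription factor gene Irx2 did not pass (log2 fold change 0.02, adjusted p = 0.893 in edgeR), with a median log2 fold change of -1.37 against 0.04 over all genes tested. Under the alternatives run, 10 to 12 of the 13 were lower and none was higher. Slc12a1, the salt cotransporter of the segment, went from 354 and 525 CPM in the normal to 55.0 and 56.5 CPM in the ischemic sections, a log2 fold change of -3.23 (SE 0.15). Tmem207, a small membrane protein, fell by 3.25 on the log2 scale. Kcnj1, the potassium channel that recycles potassium to the lumen, fell by 1.37, and Bsnd, the chloride channel subunit barttin, fell by 2.08. The claudins that form the cation-selective junctions differed, with Cldn10 falling by 1.72, Cldn16 by 1.48 and Cldn19 by 0.28 on the log2 scale. Umod thus lay with the least reduced of the list, near Ptger3 (-0.42), and Egf below all of its members.

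The distal convoluted tubule, which carries Egf and some Umod, changed in the same direction. Of 8 genes, 7 were lower, again beside 29.7% of all genes, with a median of -1.35, and Trpm6, a magnesium channel, did not pass (-0.45, adjusted p = 0.0780 in edgeR). Pvalb, which encodes the calcium-binding protein parvalbumin, had the lowest log2 fold change of this list, below that of Egf, at 40.0 and 36.2 CPM in the normal and 0.386 and 0.231 CPM in the ischemic sections (log2 fold change -7.19, SE 0.25). Slc12a3, the cotransporter that defines the segment, fell by 1.25 on the log2 scale and Klhl3, a regulator of that cotransporter, by 2.40. In the connecting tubule list 4 of 5 genes were lower, among them Calb1 (calbindin, -3.21), and the calcium channel gene Trpv5 did not pass (0.26, adjusted p = 0.262 in edgeR).

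**Figure D1:**
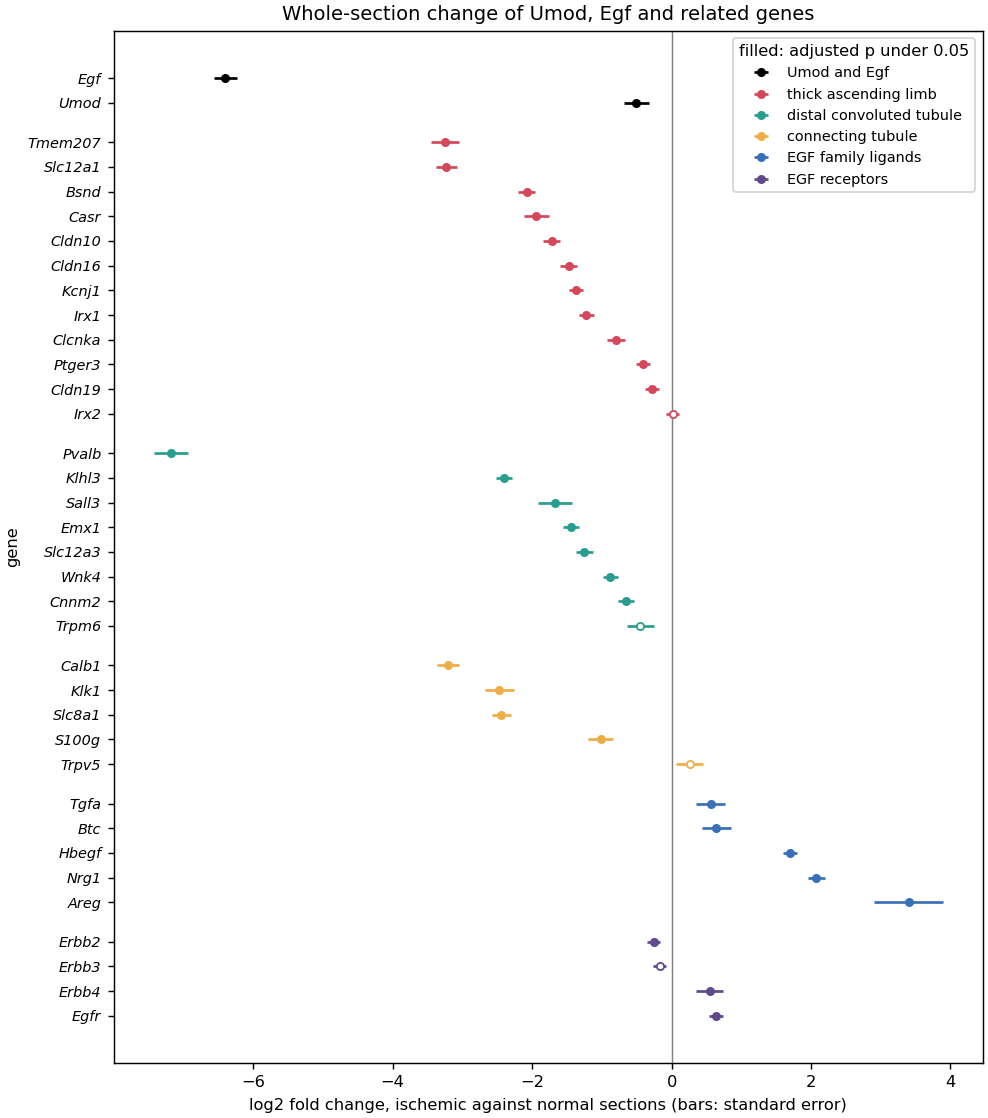
Whole-section log2 fold change of ischemic against normal sections, with the standard error as bars, for Umod, Egf and genes of 5 lists, where filled points passed an adjusted p of 0.05. Egf at -6.40 lies below every gene shown but Pvalb at -7.19, Umod at -0.51 lies near the upper end of the thick limb list, and the EGF family ligands lie above 0.

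Genes that act on the uromodulin protein went different ways. Hpn, which encodes hepsin, fell by 1.41 on the log2 scale. Mal, a protein of apical sorting, rose from 156 and 207 CPM to 327 and 325 CPM (log2 fold change 0.58, SE 0.12), a call lost without ischemic section 1 or 2 (adjusted p = 0.0850 and 0.0769 in edgeR).

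Other ligands of the EGF family were higher where Egf was lower. Of 7 other ligands of the family, the 5 that passed the filter on low counts were higher in the ischemic sections, in a comparison with 31.0% of genes called higher, and Ereg and Epgn were not tested for lack of counts. Hbegf, heparin-binding EGF-like growth factor, was at 12.4 and 16.5 CPM in the normal and 57.7 and 53.9 CPM in the ischemic sections (log2 fold change 1.69, SE 0.10). Nrg1, neuregulin 1, was at 4.49 and 4.56 CPM against 22.5 and 24.2 CPM (log2 fold change 2.08, SE 0.12). The sections of both groups were well apart for these ligands. Areg, amphiregulin, rested on 2 and 3 UMIs in the normal and 32 and 22 UMIs in the ischemic sections, and Btc and Tgfa rose by 0.64 and 0.56 on the log2 scale. Summed over the 7 ligands, the level came to 21.2 and 27.4 CPM in the normal and 90.2 and 89.3 CPM in the ischemic sections. With DESeq2 in place of edgeR 3 of the 5 passed, as they did without ischemic section 2, and in no setting was a ligand lower.

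Receptors and sheddases moved by less than the ligands Hbegf, Nrg1 and Areg. Egfr, the receptor of EGF, was at 16.8 and 18.4 CPM in the normal and 31.0 and 35.1 CPM in the ischemic sections (log2 fold change 0.63, SE 0.10). Erbb4 rose by 0.55 on the log2 scale, and Erbb2 fell by 0.25, which turned to 0.01 with section totals in place of TMM, while Erbb3 did not pass (-0.17, adjusted p = 0.131 in edgeR). The Erbb4 call was lost with DESeq2 (adjusted p = 0.0733), without normal section 1 (adjusted p = 0.0917 in edgeR) and without ischemic section 1 (0.0789) or 2 (0.108), and that of Erbb2 was lost with DESeq2 (adjusted p = 0.0976), without a low count filter (0.0817 in edgeR) and without ischemic section 1 (0.328) or 2 (0.248). Adam10 and Adam17, proteases that release EGF family ligands, rose by 0.38 and 0.42. The sheddase calls were lost without ischemic section 1 and not all held without ischemic section 2, and 1 of these genes passed with DESeq2.

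**Figure D2:**
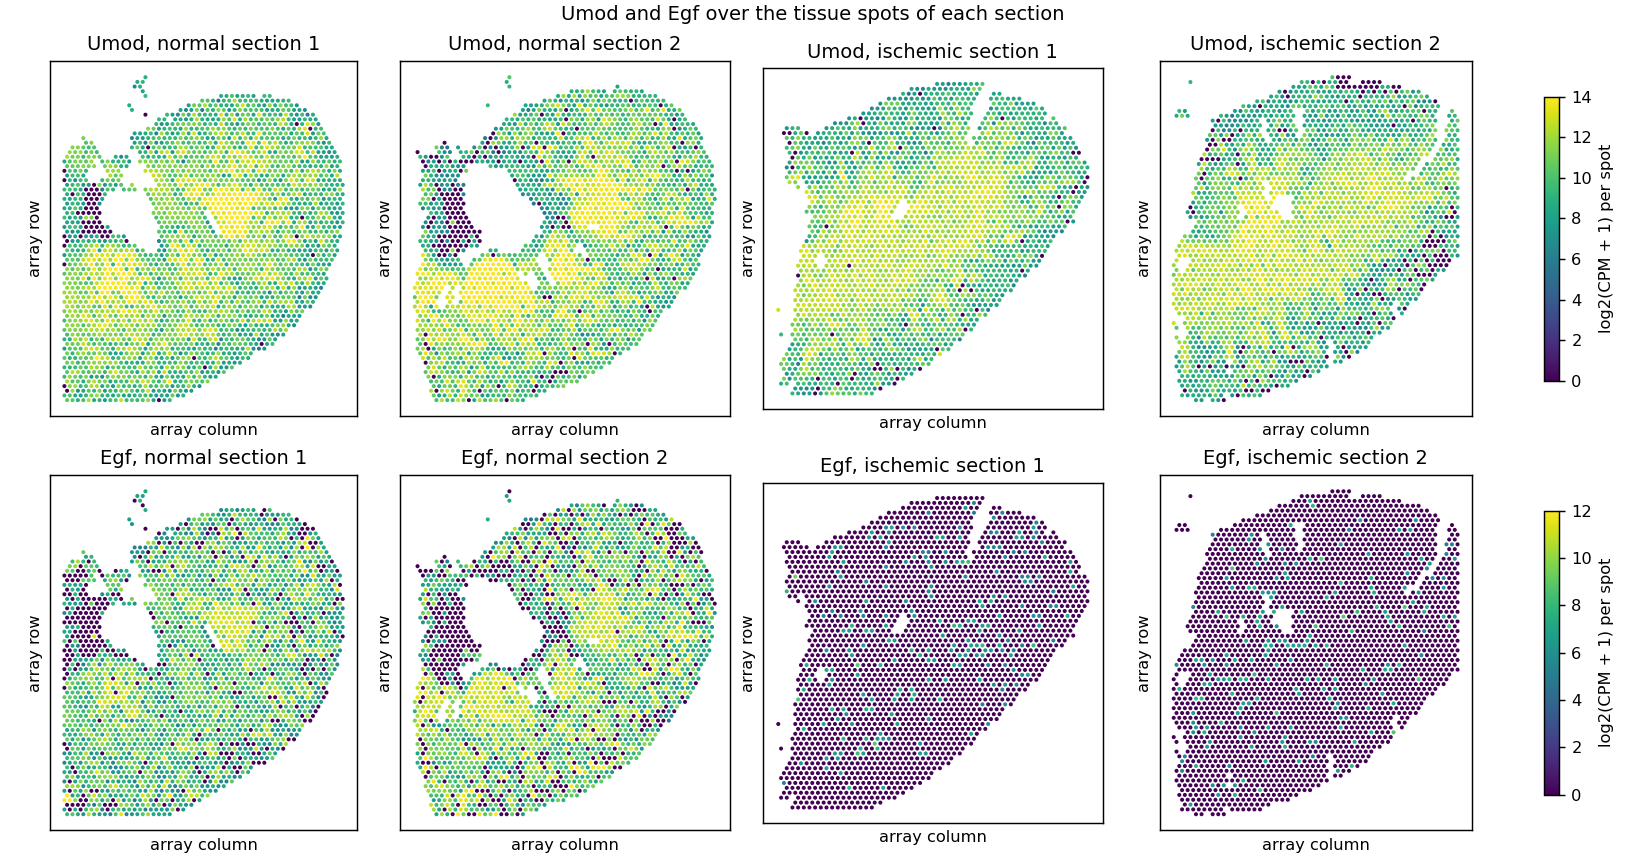
Every tissue spot of the 4 sections at its place on the array (array column across, array row down), coloured by log2(CPM + 1) of Umod in the upper row and Egf in the lower row. Umod is bright in the inner stripe of all 4 sections, whereas Egf follows Umod in the normal sections and is seen in 224 of 2401 and 199 of 2613 spots of the ischemic sections.

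To locate both genes within the kidney, each spot was given a zone (cortex, outer stripe, inner stripe, inner medulla or pelvis) from marker genes of the spot and its 6 neighbours. Neither Umod nor Egf took part in that rule, and the inner stripe was scored on Slc12a1, Cldn10 and Ptger3. These are thick limb genes. Across normal spots Slc12a1 had a Pearson correlation of 0.67 and 0.62 with Umod and of 0.55 and 0.57 with Egf. The zone is thus not independent of either gene, and a high level of both there is in part set by the rule. In normal tissue both genes were highest in the inner stripe. Umod there was at 8394 and 11663 CPM, against 3629 and 4104 CPM in outer stripe and 1504 and 1433 CPM in cortex. Its level was 2035 and 2847 CPM in inner medulla and 1158 and 1188 CPM in pelvis. After TMM normalisation over the zone sums, the order was inner stripe (10237 ± 228 CPM, SD, n = 2), outer stripe (5358 ± 166), inner medulla (2391 ± 191), cortex (1858 ± 257) and pelvis (1002 ± 73.4), and no neighbours in this order overlapped.

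Egf in normal tissue was at 1093 and 1744 CPM in the inner stripe, 507 and 693 CPM in the outer stripe and 404 and 478 CPM in the cortex. It was at 282 and 434 CPM in the inner medulla and 174 and 195 CPM in the pelvis. The TMM order was inner stripe (1434 ± 171 CPM, SD, n = 2), outer stripe (825 ± 84.5), cortex (553 ± 7.71), inner medulla (349 ± 51.4) and pelvis (157 ± 1.86), again with no overlap between neighbours. Egf thus differed from Umod in its order, standing higher in the cortex than in the inner medulla, and in a flatter slope. The inner stripe exceeded the cortex by 2.46 (SE 0.16, adjusted p = 2.05e-09) for Umod and by 1.37 (SE 0.16, adjusted p = 2.69e-06) for Egf on the log2 scale, in edgeR's quasi-likelihood test over all genes, where 23.2% of 14059 genes passed. Over the outer stripe it exceeded by 0.93 for Umod (adjusted p = 6.47e-04) and 0.80 for Egf (adjusted p = 0.00208), with 19.5% of genes past the test. Whether the slopes of both genes differ from each other was not tested.

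**Figure D3:**
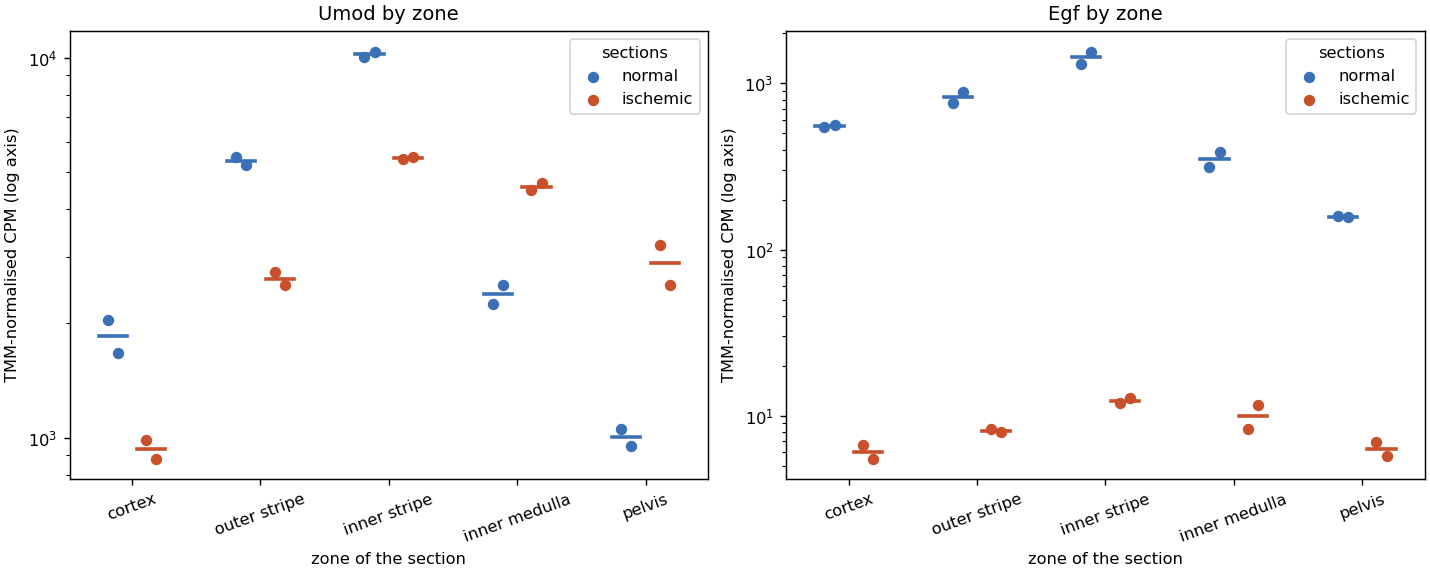
TMM-normalised CPM on a log axis for Umod (left) and Egf (right) in each zone, with a point per section and a bar at the mean of the 2 sections of a condition. Umod of ischemic sections lies below that of normal sections in cortex, outer stripe and inner stripe and above it in inner medulla and pelvis, and Egf of ischemic sections lies below in all 5 zones.

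In the ischemic sections Egf was low everywhere, and its small remainder had its highest CPM in the inner stripe, where counts were few. It was at 14.4 and 15.2 CPM there (58 and 58 UMIs), 7.84 and 7.57 CPM in the outer stripe (82 and 67 UMIs) and 6.18 and 5.10 CPM in the cortex (77 and 48 UMIs). In the inner medulla it was at 9.81 and 13.8 CPM (28 and 38 UMIs) and in the pelvis at 8.06 and 7.19 CPM (10 and 8 UMIs). The TMM values of pelvis and cortex overlapped, and those of inner medulla and outer stripe nearly touched. The inner stripe exceeded the cortex by 1.01 on the log2 scale (SE 0.21, adjusted p = 6.68e-04 in edgeR, with 40.9% of genes past the test), a call that was lost without ischemic section 2 (0.82, adjusted p = 0.115). It exceeded the outer stripe by 0.60 (adjusted p = 0.0292, with 34.4% of genes past the test), which was lost without ischemic section 1 (0.68, adjusted p = 0.246) and without ischemic section 2 (0.51, adjusted p = 0.385).

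Between conditions, Egf fell in each of the 5 zones. The log2 fold change was -6.49 (SE 0.21) in the cortex, -6.66 (SE 0.21) in the outer stripe and -6.86 (SE 0.21) in the inner stripe. It was -5.14 (SE 0.21) in the inner medulla and -4.63 (SE 0.25) in the pelvis, with adjusted p values from 3.99e-14 to 3.51e-10 in edgeR's quasi-likelihood test. All zone sums entered a single model in which sums of the same section count as separate units, so p values of zones are not as independent as their number implies. With each zone fitted alone, so that a section entered once, the falls ran from -6.86 to -4.60 and the highest adjusted p was 8.04e-05 in edgeR. In folds the values of the single model were 90.1, 101, 116, 35.2 and 24.7. The shares of all genes called lower in the same zones were 19.8%, 29.3%, 24.7%, 22.4% and 12.3%.

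Umod fell in the zones where the thick limb runs. It was at 913 and 817 CPM in the ischemic cortex, 2581 and 2395 CPM in the outer stripe and 6594 and 6525 CPM in the inner stripe. Each ischemic section was below each normal section in these 3 zones, as for 36.8%, 41.6% and 35.4% of all genes tested there. The log2 fold change was -0.99 (SE 0.16, adjusted p = 5.25e-05) in the cortex, -1.03 (SE 0.16, adjusted p = 1.69e-05) in the outer stripe and -0.91 (SE 0.16, adjusted p = 1.07e-04) in the inner stripe, in edgeR's quasi-likelihood test. These falls, of 1.99, 2.04 and 1.87-fold, are larger than the 1.42-fold of the whole section. Spots given the inner stripe were 12.8% and 12.8% of the normal and 16.8% and 18.7% of the ischemic sections. Spots given the cortex were 45.2% and 43.5% against 39.2% and 36.8%. The part of these shares in the whole-section value was not tested. With each zone fitted alone, the adjusted p values were 1.37e-05, 1.30e-05 and 0.0257 in edgeR. With section totals in place of TMM, the outer stripe value was -0.64 and stayed past the test (adjusted p = 0.00165).

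Umod kept a slope between zones after ischemia. In ischemic tissue the inner stripe exceeded the cortex by 2.55 on the log2 scale (SE 0.17, adjusted p = 1.19e-09) and the outer stripe by 1.06 (SE 0.16, adjusted p = 6.83e-05), the latter lost without ischemic section 2 (0.99, adjusted p = 0.0680). The change of the inner stripe against the cortex with ischemia was 0.09 (SE 0.22, adjusted p = 0.877) for Umod and -0.37 (SE 0.26, adjusted p = 0.453) for Egf in edgeR, so no change of slope passed the test for either with 2 sections a group. With zones scored from the spot alone the value for Egf was -0.92 (adjusted p = 0.0604). The share of genes past that test was 9.15%. Against the outer stripe the changes were 0.12 (SE 0.22, adjusted p = 0.859) and -0.20 (SE 0.26, adjusted p = 0.788), with 2.25% of genes past the test.

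In the inner medulla and pelvis Umod moved the other way. The inner medulla went from 2035 and 2847 CPM to 5306 and 5554 CPM, and the pelvis from 1158 and 1188 CPM to 3728 and 3188 CPM. Both ischemic sections lay above both normal sections, as for 31.0% and 26.1% of all genes tested in these zones. The log2 fold change was 0.94 (SE 0.16, adjusted p = 1.23e-04) in the inner medulla and 1.52 (SE 0.16, adjusted p = 2.65e-06) in the pelvis, in edgeR's quasi-likelihood test, where 14.5% and 9.56% of genes were called higher. With each zone fitted alone, the adjusted p values were 0.00383 and 7.34e-04 in edgeR. The order of Umod in ischemic tissue became inner stripe (5464 ± 51.6 TMM CPM, SD, n = 2), inner medulla (4585 ± 131), pelvis (2877 ± 489), outer stripe (2626 ± 144) and cortex (932 ± 72.9), with pelvis and outer stripe overlapping. Against the change in the inner stripe, that of Umod was higher by 1.84 in the inner medulla (adjusted p = 3.40e-04 in edgeR) and by 2.43 in the pelvis (adjusted p = 7.92e-06), contrasts added after these directions had been seen and that 3.53% and 7.23% of genes passed. The first was lost without either ischemic section (adjusted p = 0.101 and 0.106) and the second without ischemic section 1 (adjusted p = 0.0506). When the zone was scored from the spot alone, without its neighbours, the inner medulla value was 0.051 (adjusted p = 0.803) and the pelvis value 1.00 (adjusted p = 1.24e-04).

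The makeup of these zones moved along with the condition. Spots given the inner medulla were 4.66% and 7.23% of the normal and 12.7% and 12.9% of the ischemic sections. Aqp2, the water channel of collecting duct principal cells and a gene of that zone's rule, went from 2551 and 2338 CPM to 550 and 868 CPM there, while Slc14a2, a urea transporter also in the rule, went from 84.0 and 309 CPM to 688 and 602 CPM. In the ischemic inner stripe Slc14a2 was at 710 and 575 CPM, so it no longer set the inner medulla apart from the inner stripe. Upk1b, a urothelial gene of the pelvis rule, went from 506 and 652 CPM to 54.0 and 94.4 CPM in the pelvis. Spots given the pelvis were still 5.01% and 5.03% of the normal and 4.46% and 5.01% of the ischemic sections, a share that the rule caps. Thick limb genes other than Umod were more often lower than higher in both zones. Of the 13, 6 were lower and 1 was higher (Irx2, 1.23) in the inner medulla, where 22.4% of all genes were lower and 14.5% higher. In the pelvis 6 were lower and 2 were higher (Kcnj1, 1.13, and Irx2, 0.93), where 12.3% of all genes were lower and 9.56% higher. The inner stripe genes Slc12a1, Cldn10 and Ptger3 are on this list and gave 2 of the 6 lower genes in each zone. Slc12a1, among the lower, fell by 2.76 and 1.3 on the log2 scale, against 3.42 in the inner stripe. The part of the zone makeup in the rise of Umod was not tested.

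To set both genes against each other and against their own tubule segment, ratios of UMIs were taken within each section. These are counts of captured transcripts and not of protein, and a ratio is compared only with the same ratio in other sections or zones. Umod UMIs per Egf UMI were 6.00 and 5.21 in the normal and 332 and 332 in the ischemic sections, a 59.4-fold rise. In the cortex the ratio was 3.72 and 3.0 in normal sections, the lowest of any zone, and 148 and 160 in ischemic sections, again the lowest. In the inner stripe it was 7.68 and 6.69 in the normal and 459 and 430 in the ischemic sections, with 95% Clopper-Pearson intervals of 355 to 604 and 332 to 566 for counting error only.

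Set against the summed UMIs of the 13 thick limb genes, Umod and Egf went in opposite directions. Umod per thick limb UMI was 2.70 and 2.34 in the normal and 5.87 and 5.93 in the ischemic sections, a 2.34-fold rise. Egf per thick limb UMI was 0.450 and 0.450 in the normal and 0.0177 and 0.0179 in the ischemic sections. Relative to this list Umod was thus higher and Egf lower after ischemia. The size for Umod rested on Slc12a1 and Cldn10, without which it was 7.18 and 6.56 in the normal and 10.2 and 10.2 in the ischemic sections, a 1.48-fold rise. Within the cortex Umod per UMI of the whole list was 1.88 and 1.68 against 2.31 and 2.31. All 3 ratios separated the groups without overlap, but an exact two-sided permutation test of 2 against 2 sections cannot go below p = 0.333, the value each of them reached. The list was chosen with earlier results of these data known.

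**Figure D4:**
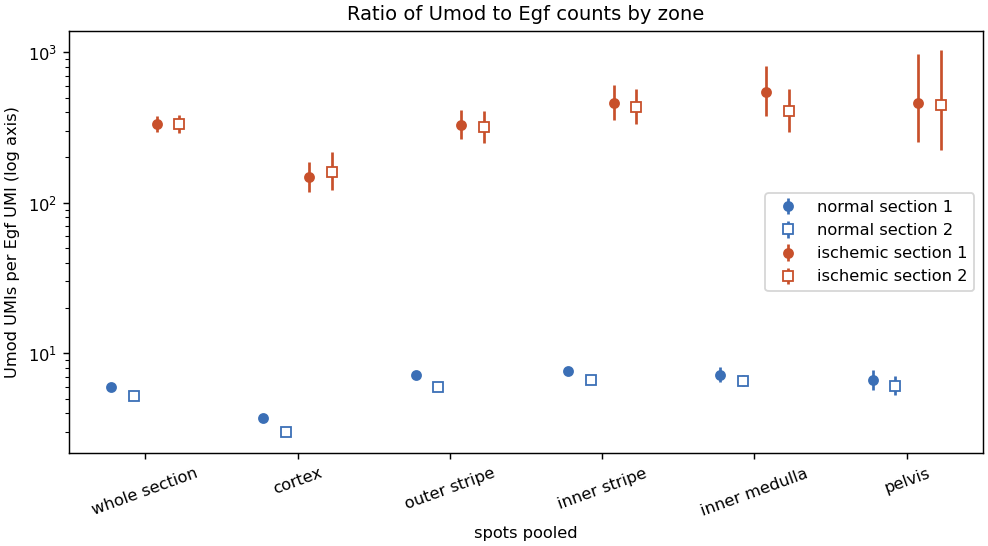
Umod UMIs per Egf UMI on a log axis for whole sections and for each zone, 1 point per section, with 95% Clopper-Pearson intervals as bars. Normal sections lie between 3.0 and 7.68, ischemic sections between 148 and 541, and the cortex is lowest in all 4 sections.

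Across spots, both genes rose and fell together in normal tissue. The Pearson correlation of log2(CPM + 1) was 0.66 over 2616 spots of normal section 1 and 0.65 over 2682 spots of normal section 2. It was 0.13 over 2401 spots and 0.13 over 2613 spots of the ischemic sections. Spearman's rho gave 0.840 and 0.829 against 0.141 and 0.168. These are descriptions without a test, since spots of a section are not replicates and share the depth and zone of their tissue.

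The link in normal tissue was not only the contrast between zones. Within the cortex it was 0.60 and 0.51, within the outer stripe 0.73 and 0.62, and within the inner stripe 0.70 and 0.72 in normal sections 1 and 2. Within zones of the ischemic sections it lay between 0.04 and 0.22. When the counts of a spot and its neighbours were pooled, the values were 0.80 and 0.88 in the normal and 0.23 and 0.31 in the ischemic sections. The Egf UMIs of ischemic tissue lay in 224 and 199 spots, with at most 4 and 2 UMIs in a spot, and in counts this sparse a weak correlation cannot be read as a loss of shared pattern.

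Sums over many spots are less sparse. Spots of each section were cut into 5 equal parts by Umod CPM. From the part with the lowest to that with the highest Umod, Egf in normal section 1 went through 82.3, 153, 346, 651 and 1410 CPM. In normal section 2 it went through 88.3, 174, 402, 911 and 2025 CPM. Egf thus climbed at every step in both. The ischemic sections kept a slope at a far lower level, with 2.06, 5.74, 8.71, 11.5 and 15.6 CPM (14, 41, 57, 62 and 81 UMIs) in section 1. In ischemic section 2 the levels were 3.69, 2.92, 6.54, 12.7 and 19.0 CPM (19, 18, 35, 60 and 87 UMIs). The residual Egf of ischemic tissue was thus higher where Umod was high. Of the spots with the highest Umod, those of the inner stripe were 42.4% and 49.0% in the normal and 43.7% and 51.1% in the ischemic sections.

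**Figure D5:**
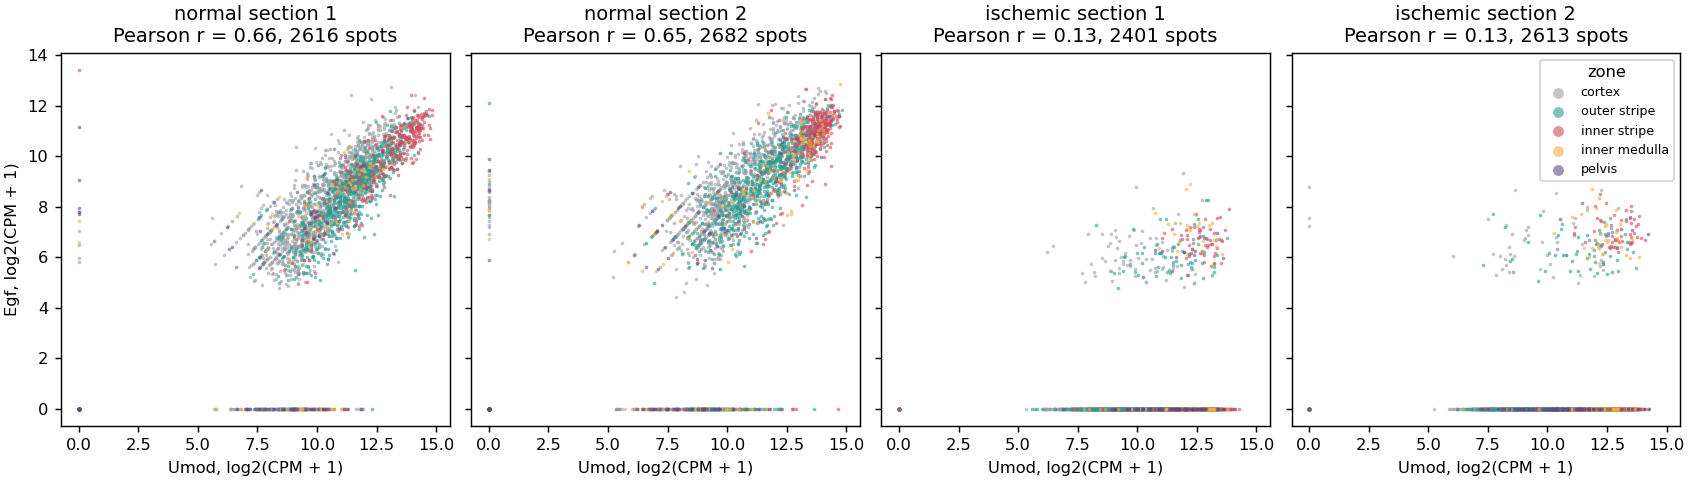
Egf against Umod in every tissue spot of each section, both as log2(CPM + 1) and coloured by zone, where points on an axis have no UMI of that gene. Pearson's r is 0.66 and 0.65 in the normal and 0.13 and 0.13 in the ischemic sections, where most spots have Umod and no Egf.

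Shares of spots were compared at a matched depth. Every spot was thinned to 2000 UMIs, which left out 48 and 150 shallower spots of the normal and 58 and 105 of the ischemic sections. Umod was then found in 83.4% and 81.7% of normal and 83.4% and 81.5% of ischemic spots, and without thinning in 97.7%, 93.8%, 97.8% and 94.5%. Over whole sections the share of spots with Umod was thus close in both conditions. In the inner stripe it was 96.4% and 98.5% in the normal and 98.5% and 99.0% in the ischemic sections, too near its ceiling to show a fall in level. In the cortex it was 74.0% and 73.8% in the normal and 66.7% and 60.5% in the ischemic sections, and in the inner medulla 87.0% and 64.6% against 99.0% and 99.4%. The outer stripe had 93.4% and 92.4% against 88.7% and 86.2%. Egf was found in 49.6% and 54.6% of normal spots (95% Clopper-Pearson intervals 47.6 to 51.5 and 52.6 to 56.5). In ischemic spots it was found in 1.75% and 1.83% (1.26 to 2.37 and 1.35 to 2.44), and without thinning the shares were 87.7%, 80.5%, 9.33% and 7.62%. Both genes together were found in 46.6% and 50.6% of normal and 1.66% and 1.59% of ischemic spots.

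By zone, the thinned share of spots with Egf in normal tissue was highest in the inner stripe, at 78.1% and 84.8%. Outer stripe spots followed with 54.8% and 60.1%, while cortex (40.9% and 45.9%) and inner medulla (35.7% and 47.5%) had no common order in both sections. The pelvis, a zone of urothelium that should lack Egf, still had 28.4% and 21.7%. In the ischemic sections the share was 3.53% and 2.27% for inner stripe, 1.10% and 0.873% for outer stripe, 1.21% and 1.59% for cortex and 2.94% and 1.56% for pelvis, with 2.03% and 3.93% for inner medulla. Whether any zone differed from the pelvis was not tested, and the ischemic pelvis shares rest on 3 and 2 spots with Egf. In ischemic section 2 the inner medulla share was above that of the inner stripe. Umod was found in 61.8% and 56.6% of the normal and 94.1% and 89.1% of the ischemic pelvis spots.

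Distance from the tissue edge was a measure that uses no gene. Spots were cut into 5 equal bins from the edge inwards. A bin does not hold the same anatomy in both conditions, since the inner medulla lay at a median relative depth of 0.124 and 0.149 in the normal and 0.391 and 0.429 in the ischemic sections, so bins are compared within a section only. In the normal sections Umod was lowest in the outermost bin, at 1334 and 2096 CPM, and stood at 3773 and 3954 CPM in the innermost. It did not rise at each step. Section 1 was highest in bin 4 (3864 CPM), and section 2 went from 3949 CPM in bin 2 to 3546 CPM in bin 3. In the ischemic sections Umod climbed at each step, from 1646 and 1918 CPM to 3800 and 4394 CPM. Egf went from 293 and 430 CPM to 543 and 723 CPM in the normal sections, with its highest bins further out (617 CPM in bin 3 of section 1 and 760 CPM in bin 4 of section 2). In the ischemic sections Egf was 6.46 to 12.8 CPM in section 1 and 7.01 to 10.5 CPM in section 2.

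Genes whose pattern across spots was most like that of Umod and Egf were ranked among 9605 genes with a UMI in at least 5% of the spots of every section, by the mean of the Pearson correlation over the 2 sections of a condition. For Umod in normal tissue, Egf came second with a mean of 0.66. Ahead of it was Wfdc15b, a whey acidic protein family member (0.67), and behind it were Slc12a1 (0.65) and Ppp1r1a, a protein phosphatase inhibitor (0.64). Kng2, Mt1, Gpx6, Ckb, Kcnj1 and Cox7b made up the rest of the 10. For Egf in normal tissue Umod came first, ahead of Ppp1r1a (0.59), Wfdc15b (0.57) and Slc12a1 (0.56), and 7 of the 10 genes nearest Egf were also among the 10 nearest Umod.

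In ischemic tissue the company of Umod was different. Its 10 nearest genes were led by the metallothionein Mt1 (0.72), Lcn2, which encodes the injury marker lipocalin 2 (0.69), the surface protein Cd24a (0.64) and Mt2 (0.63). Defb1, Spp1, Mrps6, Clu, Tspan8 and Ppp1r1a followed, and only Mt1 and Ppp1r1a were shared with the 10 of normal tissue. Spp1, which encodes osteopontin, already went with Umod within the normal inner stripe, at 0.56 and 0.44 against 0.63 and 0.58 in the ischemic inner stripe. Egf was at rank 1098 for Umod, a rank that rests on 255 and 219 Egf UMIs and is not read as a change of pattern. Lcn2 rested on 219 and 220 UMIs in the normal sections, where its correlation with Umod was 0.04 and 0.03, and on 94901 and 94111 UMIs in the ischemic sections, where it was 0.69 and 0.68. Within the ischemic cortex alone it was 0.42 and 0.46, and within the ischemic inner stripe 0.55 and 0.43, against 0.22 and 0.10 in the normal inner stripe, where Lcn2 had 84 and 60 UMIs. For Havcr1, the injury marker of the proximal tubule, the correlation with Umod changed sign with the area, at -0.29 and -0.19 over whole ischemic sections and at 0.12 and 0.20 within the ischemic cortex. The correlation of Umod with Slc12a1 was 0.67 and 0.62 in the normal and 0.44 and 0.39 in the ischemic sections, where Slc12a1 had 1709 and 1467 UMIs.

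Within the cortex the convoluted tubule marker was set beside both members. There, Slc12a3 correlated with Egf at 0.25 and 0.29 and with Umod at 0.17 and 0.22 in the normal sections. In the ischemic cortex the values were 0.18 and 0.11 for Egf and 0.18 and 0.27 for Umod, where the Egf values rest on 77 and 48 cortex UMIs. The difference between the members was not tested. Over whole normal sections Slc12a3 stood near 0 with both, at 0.03 and 0.07 for Egf and -0.09 and -0.02 for Umod. For Egf in ischemic tissue no gene exceeded a mean of 0.15 (Ppp1r1a), which in counts this sparse is no finding.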

How the data were processed

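ST data of 4 kidney sections, 2 normal and 2 ischemic, were used, and the other sections and assays of the study were not analysed here. The authors ran Space Ranger (1.3.0 and mm10 in the submitters' processing notes) and deposited the UMI counts of each gene in each spot, raw and not normalised. Gene positions came from GENCODE's annotation of GRCm38, matched by gene identifier, and promoters from RefSeq.

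Conditions were taken from the sample labels, and sections, never spots, were the units compared. Tissue spots were summed for each section, or for each zone of a section (20 spots or more), and tested with edgeR 4.0.16 in R 4.3.3 (filterByExpr, TMM, quasi-likelihood test, Benjamini-Hochberg adjustment over all genes, threshold 0.05). All zone sums entered 1 model, in which every condition of a zone was a group. Zone sums of a section share that section, and possibly a mouse, so each zone was also fitted alone, an alternative added after seeing the data. CPM without TMM scale the UMIs of the section or zone to 1000000. For zones, CPM of marker genes pooled over a spot and at most 6 neighbours were put on a log scale, averaged over the list and scaled to the section's mean and SD, and the highest score gave the zone. The lists were Slc12a3, Slc22a6, Slc22a8, Slc34a1, Slc5a12 and Slc5a2 (cortex), Atp11a, Cyp7b1, Serpina1f, Slc22a13 and Slc7a13 (outer stripe), Cldn10, Ptger3 and Slc12a1 (inner stripe), Akr1b3, Aqp2, Fxyd4 and Slc14a2 (inner medulla), and Krt5, Psca, Upk1a, Upk1b, Upk2 and Upk3a (pelvis, from 10 counts on and among the top 5% of spots). Spot values used log2(CPM + 1), with a pseudocount of 1 CPM.

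Section totals were 44528078, 27657481, 31053530 and 25957128 UMIs, so 3 UMIs, the floor read for a count of 0, stand for 0.0674 to 0.116 CPM. Intervals are 95% Clopper-Pearson intervals, and for a ratio they come from the share of the summed UMIs. Intervals and floors cover counting error only.

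The genes named are Umod, Egf, the genes of the marker and pathway lists, and for each member and condition the 10 genes with the most similar pattern across spots. Some genes of these lists are not reported here by name. Members and lists were chosen with earlier results of these data known. Further lists gave, among genes tested, tubular injury (6 of 6 higher), collecting duct principal cell (1 of 4 lower), intercalated cell (4 lower and 1 higher of 5), podocyte (2 lower and 1 higher of 4), endothelium (1 lower and 2 higher of 4) and macrophage (4 of 5 lower), beside 29.7% of all genes lower and 31.0% higher. Over the alternatives, 1 to 4 principal cell genes and 1 to 4 macrophage genes were lower. Alternatives were DESeq2 1.42.0, no low count filter, other scalings, a minimum of 500 UMIs per spot, a replicate or section block, other zone lists and zone rules, other thinning depths and correlation measures, and leaving out each section. Statistics were tested on simulated data. Spots were handled in Python 3.11.15.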

Additional observations from a re-analysis of the deposited data

Results flagged for a closer look

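The change of Umod with ischemia had opposite directions in different zones, and a contrast added after these had been seen restates that observation with a size and an error. Against the inner stripe, the log2 change of Umod was higher by 1.84 (SE 0.22) in the inner medulla and by 2.43 (SE 0.22) in the pelvis, with adjusted p values of 3.40e-04 and 7.92e-06 in edgeR's quasi-likelihood test. The first was lost without ischemic section 1 or 2 (adjusted p = 0.101 and 0.106 in edgeR) and the second without ischemic section 1 (adjusted p = 0.0506). With zones scored from the spot alone, the rise of Umod in the inner medulla itself was 0.051 on the log2 scale and its difference from the inner stripe 1.05 (adjusted p = 0.0232 in edgeR). Both ischemic sections were above both normal sections in the inner medulla and pelvis, as for 31.0% and 26.1% of all genes tested there. In the inner stripe both ischemic sections were below both normal sections, as for 35.4% of all genes tested there.

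Egf fell in all of these zones, but by less in the inner medulla, by 1.73 (SE 0.28, adjusted p = 0.00228 in edgeR), and in the pelvis, by 2.23 (SE 0.38, adjusted p = 0.00181 in edgeR), than in the inner stripe. The first was lost without ischemic section 1 or 2 (adjusted p = 0.132 and 0.229 in edgeR) and with zones scored from the spot alone (adjusted p = 0.215), and the second without ischemic section 1 or 2 (adjusted p = 0.202 and 0.0628). These differences rest on 28 and 38 Egf UMIs in the ischemic inner medulla and on 10 and 8 in the ischemic pelvis. Other thick limb genes did the same in part, with 4 of 13 higher and none lower in either contrast in edgeR, beside 3.53% and 7.23% of all genes past these contrasts in either direction. The 3 genes that scored the inner stripe are on this list. They gave 1 of the 4 higher genes for the inner medulla and 2 of the 4 for the pelvis. The medians of the 13 were 0.86 and 1.07. The makeup of both zones moved with the condition, as described for Aqp2, Slc14a2 and Upk1b, and its part in these differences was not tested.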

How the results depend on the processing

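Among 384 alternatives run for 28 tested results, 365 kept direction and side of the threshold, and the causes of the changes below were not tested. Egf was lower in ischemic sections and past the threshold in all 80 alternatives for whole sections and zones. Some of the smaller differences named below lost their call or changed sign, for example without an ischemic section or with other zone scoring. Low Egf counts limit every statement on Egf within the ischemic sections. Scoring zones from the spot alone gave 0.051 for the rise of Umod in the inner medulla, -0.28 for its change of inner stripe against cortex and 0.89 for the change of Egf in the inner medulla against the inner stripe, all short of the threshold. It also moved the change of Umod in the inner medulla against the inner stripe to 1.05 and that of Egf in the inner stripe against the cortex from -0.37 to -0.92. The excess of Egf in the ischemic inner stripe over the outer stripe missed it without a low count filter (0.60) and with Cryab in the inner medulla list (0.51). Without spots between zones, the change of Umod in the inner against the outer stripe was -0.019.

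Leaving out 1 section at a time, the log2 values of Umod ran from -0.58 to -0.45 for the whole section, from 0.99 to 1.12 for the ischemic inner over outer stripe, from 1.83 to 1.92 for the inner medulla against the inner stripe and from 2.24 to 2.60 for the pelvis against it. Those of Egf ran from 0.82 to 1.22 for the ischemic inner stripe over the cortex, from 0.51 to 0.68 over the outer stripe, from 1.53 to 1.90 for the inner medulla against the inner stripe and from 2.03 to 2.42 for the pelvis against it. In each of these results the call was lost without an ischemic section, where the lone section is assumed to vary like the others. Genes past the threshold in whole sections numbered 9279, and 6493 to 10877 with a section left out.

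A fit with the replicate number as a block called 10089 genes and gave -0.51 for Umod and -6.40 for Egf. The deviations of section 1 from the group mean correlated at 0.16 across genes between conditions, and the labels name no shared animal, so the pairing is by number only. The block changed no call of Umod or Egf.

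Descriptive values moved with the measure. The mean correlation of Umod and Egf in normal sections was 0.835 by rank, 0.664 on thinned counts and 0.839 on pooled neighbours, and 0.556, 0.674, 0.709, 0.587 and 0.506 within cortex, outer stripe, inner stripe, inner medulla and pelvis. In ischemic sections it was 0.154, 0.0692 and 0.272, and 0.0984, 0.161, 0.127, 0.0590 and 0.165 within the zones. Mean shares of normal spots were 95.8% for Umod, 84.1% for Egf and 83.2% for both without thinning, 71.7%, 36.4% and 32.8% at 1000 UMIs, and 92.4%, 67.9% and 65.8% at 4000 UMIs. For ischemic spots they were 96.1%, 8.47% and 8.42%, then 71.7%, 0.769% and 0.688%, then 91.8%, 3.25% and 3.08%. The log2 fold of the ratio of Umod to Egf was 5.89 for whole sections, 5.52 for cortex, 5.63 for outer stripe, 6.09 for inner medulla and 6.15 for pelvis. Per thick limb UMI, and in alternatives chosen after seeing the data, the log2 fold of Umod was 1.23, but 0.57 without Slc12a1 and Cldn10, 0.38 for cortex, 1.47 for outer stripe, 2.04 for inner medulla and 2.51 for pelvis. That of Egf was -4.66, and -5.32 without these genes, then -5.15, -4.16, -4.71, -4.04 and -3.64 for cortex, outer stripe, inner stripe, inner medulla and pelvis.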
